A study of Homo sapiens with 4 samples.

Results

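The genes of the eIF3 subunits carried 371 of the crosslink sites that were listed for PDCD4 and for control IgG in MCF10A cells, an established, non-transformed human breast epithelial line. Their members were chosen by name: every site whose gene label held the exact symbol EIF3A, EIF3B, EIF3C, EIF3D, EIF3E, EIF3F, EIF3G, EIF3H, EIF3I or EIF3L was taken, whatever its score. These 10 genes, of 14416 genes with a listed site, held 236 of the 158922 PDCD4 sites and 135 of the 111361 IgG sites. The study asked which RNAs PDCD4 contacts in these cells and used iCLIP, in which ultraviolet light fixes protein to RNA, the protein is immunoprecipitated and the nucleotide where reverse transcription stopped is read out. Wild-type, untreated MCF10A cells entered every group, with 2 samples precipitated by PDCD4 antibody and 2 by IgG. The cells grew in medium with horse serum, epidermal growth factor, insulin, hydrocortisone and cholera toxin. No group lacked PDCD4, so IgG was the only background. All the values come from 1 pooled list for PDCD4 and 1 for IgG, so no replicate spread could be given and no difference could be tested between samples. The study ran its own differential binding analysis of PDCD4 against IgG, and its results are not used here. Each site is 1 nt wide and has a score, the number of distinct cDNAs that ended there. Intervals below are at the 95% level and cover only the counting error of the listed cDNAs, as if the sums were plain counts.

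eIF3 is the largest of the translation initiation factors. It binds the small ribosomal subunit and helps to bring mRNA to it through contacts with eIF4G, the scaffold of the cap-binding complex. PDCD4 is a tumour suppressor best known for holding eIF4A, the helicase of that complex, in an inactive form. EIF3A and EIF3C are the scaffold subunits, EIF3E, EIF3F, EIF3H and EIF3L belong with them to the body of the complex, EIF3B, EIF3G and EIF3I form a mobile module at the mRNA entry side, and EIF3D contacts the cap of selected mRNAs. The sites described here lie on the RNAs of these genes and say nothing of contacts with the eIF3 proteins.

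The PDCD4 list summed to 409308 cDNAs (mean score 2.58, highest 87) and the IgG list to 276139 cDNAs (mean 2.48, highest 22), with 721 positions in both. The study's methods state that IgG crosslink positions were subtracted from those of PDCD4 before peaks were called, so a site shared by both precipitations may have been removed from the PDCD4 list. The lists used here are peak lists, and peak calling came after that step, yet 721 positions are in both. How far the subtraction reached these lists is therefore not known, and the ratios and shared positions below carry that doubt. Sums of cDNAs below cover the listed peak positions only, and cDNAs at positions that peak calling left out are missing from them. In EIF3A and EIF3B, every PDCD4 site with a score under 3 had another PDCD4 site within 30 nt. The IgG list had lone sites with a score of 2 in both genes, as the PDCD4 list had in EIF3E, EIF3H and EIF3L. The lowest score listed thus differed between genes and lists, and the intervals do not cover this. Of 10 epithelial marker genes, 10 had a PDCD4 site and 9 an IgG site, whereas 1 of 7 markers of immune, endothelial and stromal cells, the stromal gene DCN, had a site, with 2 cDNAs in each list.

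Sequences around coding sites among those with the highest scores are shown for EIF3A, EIF3B and EIF3D, whose PDCD4 to IgG ratios had intervals above 0, and for EIF3G, whose only site had a score of 6. In EIF3A, EIF3B and EIF3D several coding sites tied at a score of 4, and only some of them are printed. Each printed sequence is a 29-nt stretch of genome build hg38 on the strand of the gene, written 5′ to 3′, with the crosslinked positions of the PDCD4 list in capitals.
EIF3A, exon 14, chr10:119056794-119056822, minus strand, score 6: aagaaattcctttgAtaaagagcgcttac
EIF3A, exon 21, chr10:119037256-119037284, minus strand, score 4: ccagctgaggaatcTtcaagctggagaga
EIF3B, exon 5, chr7:2363675-2363703, plus strand, score 4: agtacagtgtgatTTttgagagtggagac
EIF3B, exon 7, chr7:2366360-2366388, plus strand, score 4: cctcaggccataatCatctgggacatcct
EIF3D, exon 14, chr22:36511586-36511614, minus strand, score 4: atcCtcaaggacccCaacaAgcagGtcat
EIF3D, exon 9, chr22:36518891-36518919, minus strand, score 4: tctttgcagctggcAaaaactcaggggaa
EIF3G, exon 6, chr19:10117140-10117168, minus strand, score 6: ctcagagtttgaccCccccggacccaatg
The EIF3G site was the only site of that gene in either list. The EIF3D stretch in exon 14 holds all 4 PDCD4 sites of that exon, and the EIF3D site in exon 9 lies 6 nt into the exon, so its stretch begins in the intron with the end of the 3′ splice site.

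EIF3A, EIF3B and EIF3D took a larger share of the PDCD4 cDNAs than of the IgG cDNAs, and EIF3H took a smaller one. Each margin was wider than the counting error of the listed cDNAs, but for EIF3D it was not when sites were counted. The ratios of EIF3C, EIF3E, EIF3F, EIF3I and EIF3L had intervals that include 0, and EIF3G had too few cDNAs for a ratio. EIF3A, the largest scaffold subunit, had 175 cDNAs at 62 PDCD4 sites, against 54 cDNAs at 24 IgG sites. As shares of each list these were 4.28 (3.67 to 4.96) and 1.96 (1.47 to 2.55) per 10000 cDNAs, and the intervals do not overlap. The log2 ratio of PDCD4 over IgG, taken on these shares after 1 cDNA was added to each sum, was 1.11 (0.67 to 1.55). EIF3C, the other scaffold subunit, had 9 cDNAs at 4 PDCD4 sites against 5 cDNAs at 3 IgG sites, a log2 ratio of 0.17 whose interval ran from -1.29 to 1.63. That range leaves the direction for EIF3C unresolved at this depth.

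Among the subunits of the mobile module, EIF3B, an RNA-binding scaffold of that module, stood well above EIF3I in both counts and ratio. EIF3B had 129 cDNAs at 47 PDCD4 sites, against 27 cDNAs at 9 IgG sites. Its shares were 3.15 (2.63 to 3.74) and 0.978 (0.644 to 1.42) per 10000 cDNAs, and its log2 ratio was 1.65 (1.06 to 2.24), the highest of the 9 members with at least 10 cDNAs over both lists. EIF3I, a WD-repeat subunit, had 12 cDNAs at 6 PDCD4 sites against 9 cDNAs at 5 IgG sites, and a log2 ratio of -0.19 (-1.38 to 1.00). EIF3G, which has an RNA recognition motif, had 6 cDNAs at its single PDCD4 site and none in the IgG list. The upper Poisson limit of a count of 0 is 3.69 cDNAs, but that limit does not cover positions left out of the peak list. With under 10 cDNAs in all, EIF3G was given no ratio.

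EIF3D, the cap-contacting subunit, had 42 cDNAs at 16 PDCD4 sites against 12 cDNAs at 5 IgG sites. Its shares were 1.03 (0.740 to 1.39) and 0.435 (0.225 to 0.759) per 10000 cDNAs, and its log2 ratio was 1.16 (0.26 to 2.05). The 2 intervals of the shares overlap narrowly, although the interval of the ratio stays above 0. By number of sites in place of cDNAs the log2 ratio of EIF3D was 0.99 (-0.35 to 2.33), an interval that includes 0.

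The subunits of the body of the complex did not run one way. EIF3E, a PCI-domain subunit, had 98 cDNAs at 40 PDCD4 sites against 87 cDNAs at 33 IgG sites, a log2 ratio of -0.40 (-0.81 to 0.02). EIF3H, an MPN-domain subunit, had 77 cDNAs at 33 PDCD4 sites against 90 cDNAs at 41 IgG sites, a log2 ratio of -0.79 (-1.23 to -0.35). EIF3H was the only member whose interval lay wholly below 0. EIF3L, another PCI-domain subunit, had 57 cDNAs at 22 PDCD4 sites against 38 cDNAs at 14 IgG sites, and its log2 ratio was 0.00 (-0.58 to 0.59). EIF3F, the other MPN-domain subunit, had 13 cDNAs at 5 PDCD4 sites against 3 cDNAs at 1 IgG site, for a log2 ratio of 1.24 with a wide interval (-0.36 to 2.84).

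**Figure D1:**
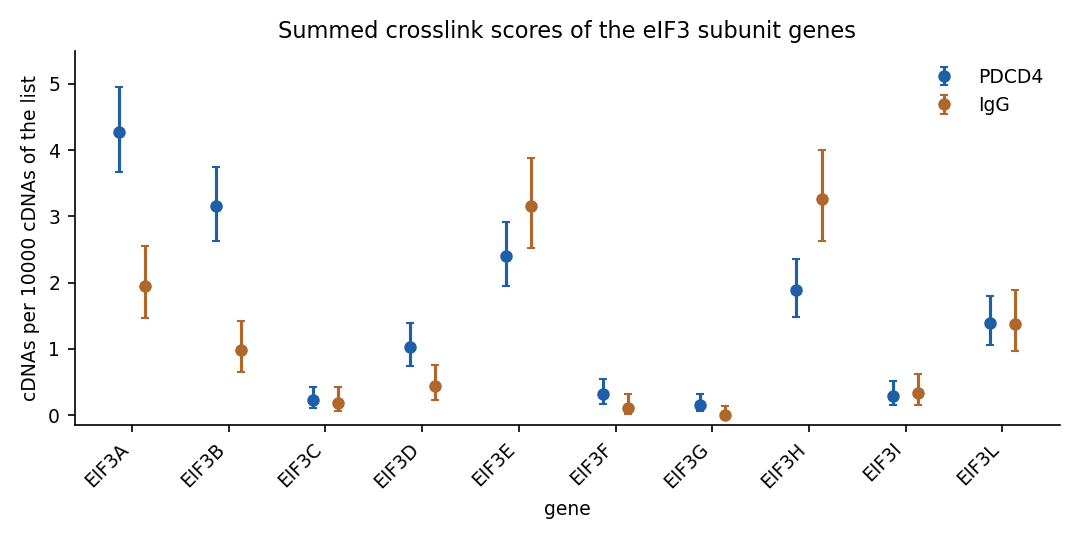
Points give the summed score of each gene per 10000 cDNAs of its list (y axis) for the 10 eIF3 subunit genes (x axis), with exact Poisson intervals at the 95% level, for the pooled PDCD4 list (blue) and the pooled IgG list (brown). EIF3A and EIF3B are higher in the PDCD4 list, at 4.28 and 3.15 against 1.96 and 0.978, whereas EIF3H is higher in the IgG list, at 3.26 against 1.88.

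By whole gene, 4 of the 9 members with at least 10 cDNAs were at least 2-fold higher in the PDCD4 list (EIF3A, EIF3B, EIF3D and EIF3F) and 0 were at least 2-fold lower. Over all 9594 genes with as many cDNAs, 18.8% were at least 2-fold higher and 18.1% at least 2-fold lower, with a median log2 ratio of -0.08 against 0.17 for the members. EIF3B had a higher ratio than 90.4% of these genes, EIF3D than 84.4%, EIF3A than 83.4% and EIF3H than 23.6%. The count of 4 is sensitive to how it is made: only EIF3A and EIF3B stayed past 2-fold with 5 cDNAs added to each sum. By number of sites in place of cDNAs, only EIF3B did, among genes with at least 10 sites.

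Summed over the 10 genes, 618 PDCD4 cDNAs and 325 IgG cDNAs gave a log2 ratio of 0.36 (0.16 to 0.55). By number of sites the same ratio was 0.29 (-0.02 to 0.59), an interval that includes 0. EIF3A and EIF3B together made up 304 of the 618 and 81 of the 325, with a log2 ratio of 1.33 (0.98 to 1.68). The other 8 genes had 314 and 244 cDNAs and a log2 ratio of -0.21 (-0.45 to 0.04). Leaving out EIF3A alone gave 0.14 (-0.08 to 0.36), and leaving out EIF3B alone also gave 0.14 (-0.06 to 0.35), so the pooled excess rested on both. Without EIF3E and EIF3H, whose own sum was 175 against 177 cDNAs, the ratio of the remaining 8 genes was 1.01.

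EIF3A, EIF3B and EIF3D had higher ratios at exonic than at intronic sites, and EIF3E did not. A site was called exonic where any annotated transcript on its strand, of whichever gene, had an exon there, with coding sequence (CDS) taken first. In EIF3A the exonic sites had 141 PDCD4 and 27 IgG cDNAs, a log2 ratio of 1.77 (1.19 to 2.36), whereas the intronic sites had 34 and 27 cDNAs, a log2 ratio of -0.25 (-0.96 to 0.47). Of the 141 cDNAs, 12 at 4 sites lay in exons of transcripts without CDS, within intron 9 of the canonical transcript. That intron holds the small nucleolar RNA gene SNORA19. In EIF3B the exonic cDNAs were 101 against 15 (log2 ratio 2.10, 1.34 to 2.86) and the intronic ones 28 against 12 (0.59, -0.35 to 1.53). In EIF3D they were 31 against 2 in exons (2.85, 1.14 to 4.55) and 11 against 10 in introns (-0.44, -1.62 to 0.74). The exonic excess in EIF3D rests on a single IgG site. For EIF3A the exonic and intronic intervals did not overlap, and for EIF3B and EIF3D they did. With the canonical transcript alone the exonic and intronic ratios were 1.75 and 0.08 in EIF3A, 1.75 (0.98 to 2.53) and 1.32 (0.43 to 2.20) in EIF3B, and 2.55 and 0.14 in EIF3D, so the gap in EIF3B depended on the annotation.

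In EIF3H the low ratio lay in the introns, with 55 PDCD4 and 78 IgG cDNAs (log2 ratio -1.06, -1.56 to -0.57), and the 22 exonic PDCD4 cDNAs against 12 from IgG gave 0.26 (-0.73 to 1.24). Introns 1 and 2 of EIF3H held 3 and 14 PDCD4 sites, with 7 and 33 cDNAs, beside 13 and 20 IgG sites, with 28 and 43 cDNAs. The introns of EIF3H sum to 109733 nt in its canonical transcript, more than in any other member, so that per kilobase of intron the gene had 0.0127 per 10000 PDCD4 cDNAs and 0.0257 per 10000 IgG cDNAs. EIF3A introns, at 40489 nt, had 0.0278 and 0.0259 on the same scale. The number of intronic sites of EIF3H was thus high and their density per length was not. EIF3I had no intronic site in either list.

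EIF3E went against the pattern of EIF3A and EIF3B, with 69 PDCD4 and 75 IgG exonic cDNAs (log2 ratio -0.69, -1.15 to -0.22) and 29 and 12 intronic cDNAs (0.64, -0.30 to 1.58). Part of this lay in exons of transcripts that have no CDS, where 8 PDCD4 sites of EIF3E had 16 cDNAs and 11 IgG sites had 29. In the exons of the canonical transcript of EIF3E there were 46 PDCD4 and 28 IgG cDNAs, a log2 ratio of 0.13 (-0.54 to 0.80), and in its introns 52 and 57, a log2 ratio of -0.70 (-1.24 to -0.16). The direction for EIF3E thus depended on which transcripts were counted, in exons and in introns. EIF3L gave close to 0 in exons (31 against 21 cDNAs, log2 ratio -0.03, -0.81 to 0.76) and in introns (26 against 17, 0.02, -0.84 to 0.88).

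**Figure D2:**
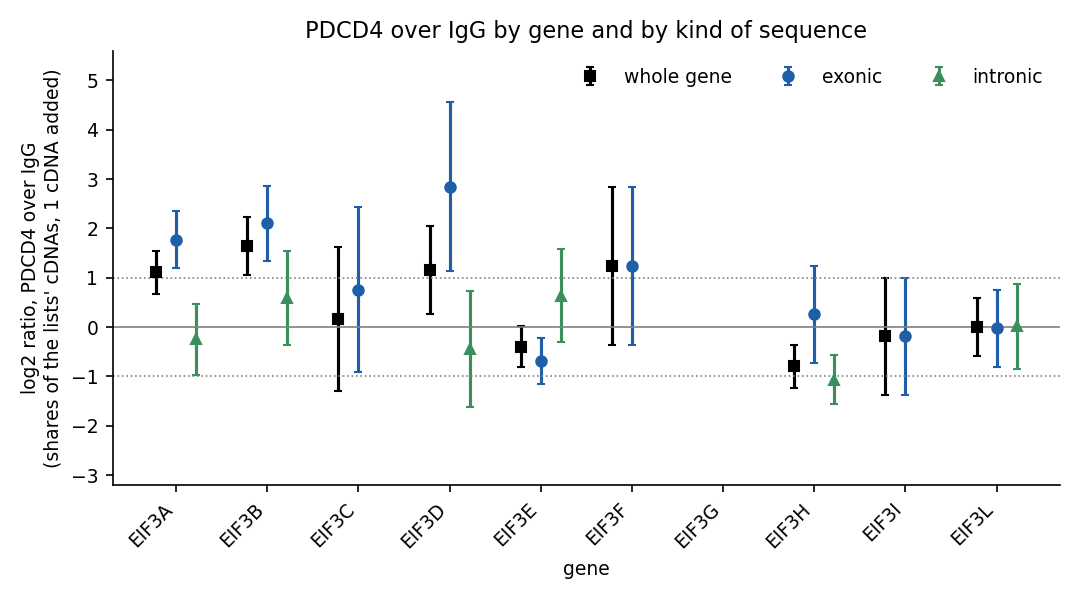
The log2 ratio of PDCD4 over IgG (y axis) is drawn for each gene (x axis) over all its sites (black squares), its exonic sites (blue circles) and its intronic sites (green triangles), with intervals at the 95% level from counting error. Dotted lines mark 2-fold and no point is drawn under 10 cDNAs. Exonic points of EIF3A, EIF3B and EIF3D lie at 1.77, 2.10 and 2.85, above their intronic points.

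The higher exonic ratio was not particular to these genes. Summed over the members, exonic sites had 435 PDCD4 and 167 IgG cDNAs, a log2 ratio of 0.81 (0.55 to 1.06), and intronic sites 183 and 158, a log2 ratio of -0.36 (-0.66 to -0.05). The same ratios over all genes were 0.58 and -0.44. Set against the exonic totals of the lists, the members' exonic ratio was 0.23 (-0.02 to 0.49). For CDS sites alone, set against the totals of all sites, the log2 ratio was 1.15 (0.80 to 1.499) in the members and 1.11 over all genes. Counted by gene on exonic sites, 4 of 9 members were at least 2-fold higher in the PDCD4 list and 0 at least 2-fold lower, beside 33.1% and 11.5% of 6847 genes.

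Sites in the members lay in coding sequence more often than sites in general, in both lists. Of the 236 PDCD4 sites, 100 (42.4%, Wilson interval 36.2 to 48.7) were in CDS, against 20.9% of all PDCD4 sites. Of the 135 IgG sites, 35 (25.9%, 19.3 to 33.9) were, against 9.72% of all IgG sites. Intron sites made up 30.9% (25.4 to 37.1) and 49.6% (41.3 to 58.0), against 49.6% and 66.0% of all sites. The 3′ UTR held 13.1% of the members' PDCD4 sites and 11.9% of their IgG sites. Exons of transcripts without CDS held 11.9% and 11.1%. Among members with over 30 PDCD4 sites, the share in CDS was 64.5% (52.1 to 75.3) of the 62 sites in EIF3A, 46.8% (33.3 to 60.8) of the 47 in EIF3B, 25% (14.2 to 40.2) of the 40 in EIF3E and 21.2% (10.7 to 37.8) of the 33 in EIF3H. In the members with few sites it went from 0 of 5 in EIF3F to all 4 in EIF3C and the 1 in EIF3G.

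**Figure D3:**
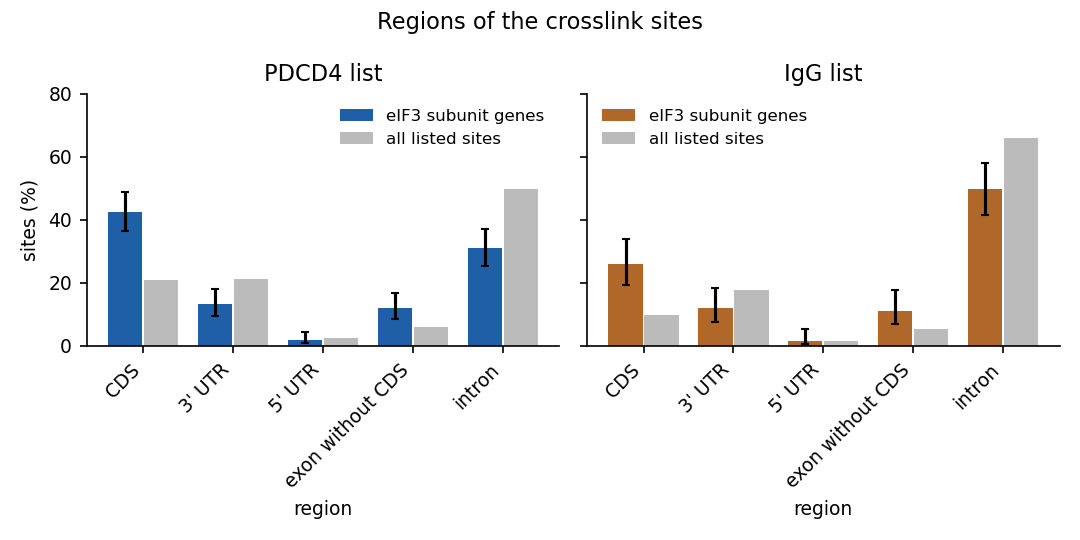
Bars give the share of sites (y axis, %) in each region (x axis) for the eIF3 subunit genes (coloured, with Wilson intervals at the 95% level) and for all listed sites (grey), in the PDCD4 list on the left and the IgG list on the right. CDS takes 42.4% of the members' PDCD4 sites and 25.9% of their IgG sites, above the 20.9% and 9.72% of all sites.

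Per length of mRNA the order of the members changed. Levels per kilobase were taken on the exons of the canonical transcript, as cDNAs of the PDCD4 list. EIF3B was highest at 25.5 cDNAs per kilobase (20.2 to 31.8), followed by EIF3E at 22.7 (16.7 to 30.3), EIF3A at 19.4 (16.2 to 23.02) and EIF3D at 13.3 (8.61 to 19.6). EIF3I followed at 8.44 (4.36 to 14.8), EIF3L at 5.99 (3.43 to 9.74), EIF3G at 5.44 (1.996 to 11.8), EIF3H at 5.05 (3.08 to 7.80), EIF3C at 3.09 (1.41 to 5.87) and EIF3F at 1.16 (0.499 to 2.28). The intervals of all neighbours in this order overlap, whereas the 3 highest lie apart from EIF3I and the members below it. In the IgG list EIF3E was highest at 13.8 per kilobase (9.20 to 20.0), EIF3A and EIF3B had 3.75 and 4.84, and EIF3D had 1.06. These counts are not scaled to the totals of the lists, which differ. Per 10000 cDNAs of each list and per kilobase, EIF3E had 0.556 for PDCD4 and 0.501 for IgG. EIF3B had 0.623 and 0.175, EIF3A 0.473 and 0.136, and EIF3D 0.325 and 0.0385. No RNA level was measured in these files, so the abundance of an mRNA and its crosslinking per molecule cannot be told apart. Since the samples were bulk lysates, fewer cells and less RNA per cell cannot be told apart either.

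The PDCD4 sites of EIF3A and EIF3B were spread over many exons rather than gathered at 1 place. PDCD4 sites lay in 17 of the 22 exons of EIF3A, and IgG sites in 8, of which 7 also had a PDCD4 site. In EIF3B they lay in 12 of 19 exons for PDCD4 and 5 for IgG. In EIF3D they lay in 6 of 15 exons for PDCD4 and in 1 for IgG. Exon 19 of EIF3A had the most PDCD4 cDNAs of that gene (6 sites, 20 cDNAs, no IgG site), followed by exon 7 with 14 cDNAs and exons 11 and 14 with 13 each. Exon 19 is 779 nt long, against 172, 186 and 114 nt for exons 7, 11 and 14, so per length it had fewer cDNAs than these. In EIF3B the last exon, which holds the 3′ UTR, had 8 sites with 19 cDNAs and exon 10 had 6 sites with 14 cDNAs. EIF3B also had 8 PDCD4 sites with 22 cDNAs, and no IgG site, in exons of transcripts without CDS, all within introns of its canonical transcript.

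**Figure D4:**
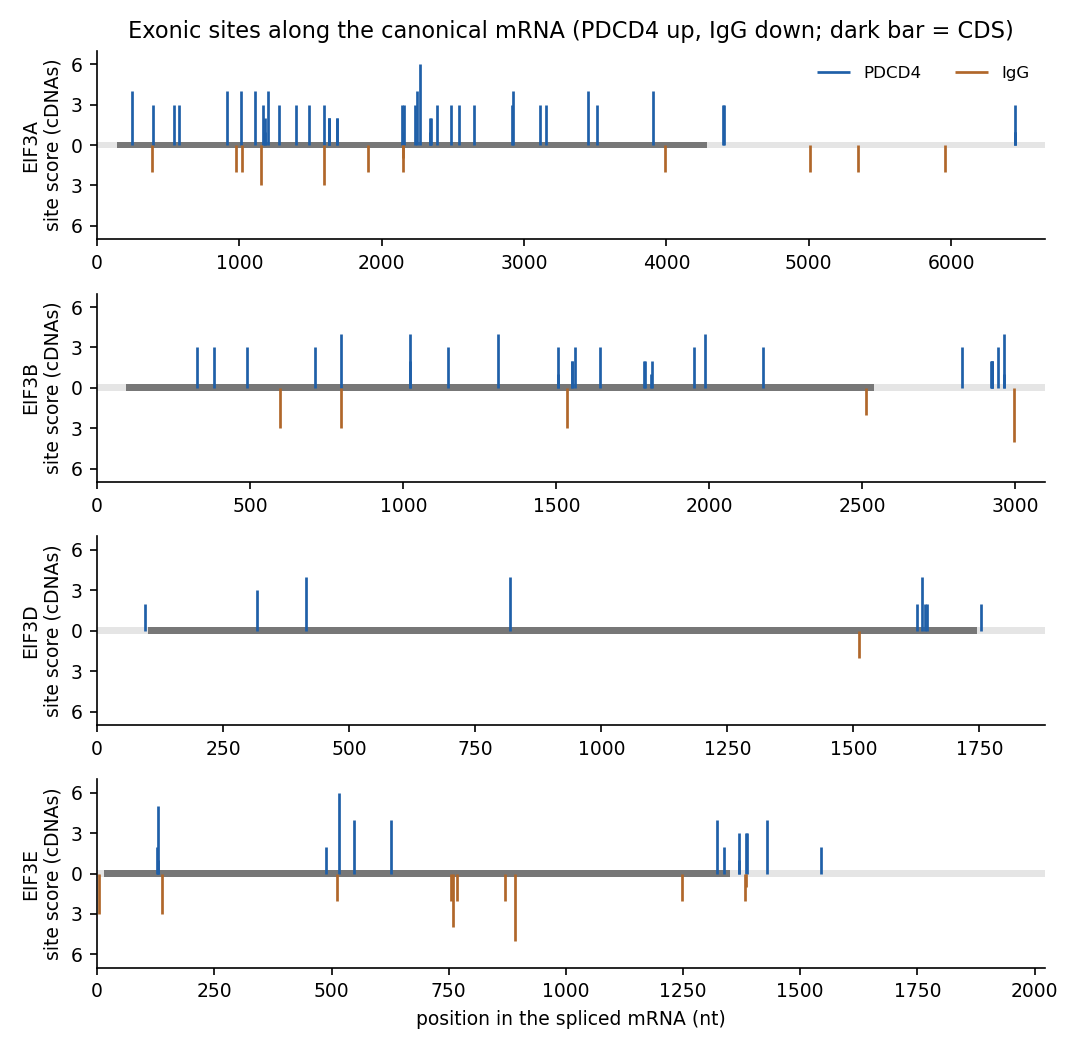
Lines show the score of each exonic site (y axis, cDNAs, PDCD4 upward in blue and IgG downward in brown) at its position in the canonical spliced mRNA (x axis, nt) of EIF3A, EIF3B, EIF3D and EIF3E, with the CDS as a dark bar. PDCD4 sites run along the CDS and the 3′ UTR of EIF3A, together in 17 of its 22 exons, with a highest score of 6, and IgG sites are fewer.

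Exon 19 of EIF3A (chr10:119041994-119042772, minus strand, 779 nt, coding) is built of short repeats, so its 6 PDCD4 sites are shown together. Each stretch is 29 nt of hg38 on the gene's strand with the crosslinked positions of the PDCD4 list in capitals, and the score is that of the site at its centre. The first pair of stretches overlap and share 2 sites.
Score 3, chr10:119042731-119042759: ggagaagggcgagaTgagGacaggtctca
Score 4, chr10:119042727-119042755: aagggcgagaTgagGacaggtctcataga
Score 3, chr10:119042535-119042563: ggccttcctggcgtAacacagatgatgac
Score 3, chr10:119042493-119042521: gaattgccgatgaaGacaggggaaactgg
Score 4, chr10:119042196-119042224: ccaggcgaggcatgGatgatgaccggggt
Score 3, chr10:119042133-119042161: ggaggaacgccgatGatgacagaattccc
The letters GATGA occur 39 times in this exon on the transcript strand, the only strand searched, and overlapping matches were counted. Of these, 26 lie exactly 30 nt before another. All 6 stretches hold GATGA, as do 82.4% of all 29-nt windows centred in the exon, so that holding it does not set the sites apart from their exon. Outside exon 19, 4.03% of the 124 exonic PDCD4 windows of the members held GATGA (1.73 to 9.09), as did 5 of the 47 IgG windows (10.6%, 4.63 to 22.6), beside 3.72% of all such windows. For 1 of the 6 sites the next 30 nt occur more than once in the genome.

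Almost no exonic site lay near the 3′ end of an exon that is followed by another. On the canonical transcripts, 96 of the 130 exonic PDCD4 sites were in exons before the last, and 1 of the 130 (0.769%, 0.136 to 4.23) was in the last 60 nt of such an exon, 35 nt from its end. These windows make up 23.8% of the mRNA length of the members. The IgG list had the same gap, with 1 of 47 sites (2.13%, 0.377 to 11.1). In the first 50 nt after an intron lay 55 PDCD4 and 17 IgG sites. The share of mRNA length in that window was not computed. With the exon ends almost empty, sites had less room elsewhere, so these counts are not a separate observation. How the alignment treated reads that cross a splice junction was not tested. The window takes 53.2% of the EIF3G mRNA and 43.9% of that of EIF3D but 18.9% of that of EIF3A, so the counts of members with short exons cover less of their mRNA. Over the mRNA outside these windows, the PDCD4 list had 38.9 cDNAs per kilobase in EIF3B, 34.9 in EIF3E, 23.9 in EIF3A, 23.7 in EIF3D and 11.6 in EIF3G.

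Near-identical copies make the counts of EIF3C uncertain. Of the 30-nt stretches in its exons, 99.3% occur elsewhere in the genome (EIF3CL is its near-identical copy), against 34.8% in EIF3L, 23.5% in EIF3E, 22.8% in EIF3I, 16.2% in EIF3F, 13.9% in EIF3A, 6.41% in EIF3H, 0.623% in EIF3D and 0 in EIF3B and EIF3G. All 4 PDCD4 sites of EIF3C and 2 of its 3 IgG sites fell within exon 9 of 21. The stretch below, from that exon, holds 3 of the PDCD4 sites (capitals), and the IgG sites follow the capital C in the middle directly.
EIF3C, exon 9, chr16:28723230-28723258, plus strand, highest score 3: gcacGacaggaaatCcaagcgcctGgatg
EIF3CL had no PDCD4 site and 1 IgG site with 2 cDNAs. Of the 4 PDCD4 sites of EIF3C, 2 are followed by 30 nt found once in the genome and 2 by 30 nt found 2 times. The part of these copies in the low counts of EIF3C was not tested. Over all members, the next 30 nt were found more than once in the genome for 15 of 236 PDCD4 and 18 of 135 IgG sites, and without these the summed log2 ratio was 0.44.

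PDCD4 sites of the members stood close to each other more often than IgG sites did. Of the 236 PDCD4 sites, 102 (43.2%) lay within 30 nt of another PDCD4 site, and of the 135 IgG sites 23 (17.0%) lay within 30 nt of another IgG site, in a list with fewer sites. The 26 PDCD4 and 9 IgG member sites with a score of 1 all lay that close to another site of their list. Closeness therefore bore on which sites were listed. The part of peak calling in the difference was not tested, and the same shares over all listed sites were not computed. In EIF3A the counts were 35 of 62 and 4 of 24, and in EIF3B 24 of 47 and 0 of 9. Within 30 nt of a site of the other list were 36 PDCD4 sites (15.3%) and 21 IgG sites (15.6%). The members shared 1 position between the lists, in exon 13 of EIF3A, with 1 PDCD4 and 2 IgG cDNAs.

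Single sites were shallow throughout. In the PDCD4 list 26 member sites had a score of 1, 88 of 2, 85 of 3 and 29 of 4, and only 8 had 5 or more. The IgG list had 9, 79, 33 and 11 at those scores and 3 at 5. The study's methods kept scores greater than 5 for later steps. At that threshold 4 PDCD4 sites remained, 1 each in EIF3A, EIF3E and EIF3G with a score of 6 and 1 in EIF3H with a score of 7, and no IgG site did. The EIF3H site lies in intron 2, although EIF3H as a whole had the lowest ratio. A difference between individual sites was not detectable at this depth.

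The crosslinked nucleotide was U at 110 of the 236 PDCD4 sites (46.6%) and at 51.1% of the IgG sites, close to the 46.7% and 51.6% of all listed sites. It was U at 29% of the members' CDS sites and 67.1% of their intron sites in the PDCD4 list. U makes up 25.0% of their whole mRNA, UTRs included, and 32.0% of their introns. Its share of the CDS alone was not computed. Cut into 3 equal stretches from start to stop codon, the CDS held 35, 39 and 25 of 99 PDCD4 sites and 11, 14 and 10 of 35 IgG sites. The positions within the codon were hit 35, 27 and 37 times by PDCD4. Intron 9 of EIF3A holds the small nucleolar RNA gene SNORA19, whose label had 3 PDCD4 sites with 9 cDNAs and no IgG site. EIF3A sites with several gene labels were counted for EIF3A as well, and with single-label sites alone EIF3A had a log2 ratio of 1.03.

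Other initiation factor genes had log2 ratios from -2.07 to 2.28, beside -0.79 to 1.65 in the members. Of the eIF3 subunits outside the 10, EIF3M had 35 PDCD4 and 4 IgG cDNAs, a log2 ratio of 2.28 (0.93 to 3.63), EIF3K had 0.75 and EIF3J, a loosely bound subunit, -0.28. In the group of eIF1, eIF1A, eIF5, eIF5B and eIF6, 2 of 5 tested genes were at least 2-fold higher and 0 lower, with a median of 0.75. These were EIF5, which triggers GTP hydrolysis by eIF2, at 2.12, and EIF1, a start codon selection factor, at 1.52. Among eIF2 and eIF2B genes, 2 of 8 were higher (EIF2S2 at 1.24 and EIF2B5 at 2.02) and 1 lower (EIF2B3 at -1.49), with a median of 0.25. Among eIF4 and PABPC genes 2 of 14 were higher, EIF4G1, the main eIF4G scaffold, at 1.84 with 265 and 49 cDNAs, and EIF4A3 at 1.08. In that group 2 were lower, the cap-binding protein gene EIF4E at -2.07 and EIF4EBP2, which encodes an inhibitor of EIF4E, at -1.77, and the median was -0.04. EIF3B at 1.65 was thus below EIF3M, EIF5, EIF4G1 and EIF2B5 in this set, but its interval, 1.06 to 2.24, overlapped all of theirs. Those of EIF5, EIF4G1 and EIF2B5 were 0.97 to 3.27, 1.41 to 2.28 and 0.25 to 3.78. The intervals of EIF1 (-0.05 to 3.09) and EIF4A3 (-0.07 to 2.22) include 0.

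**Figure D5:**
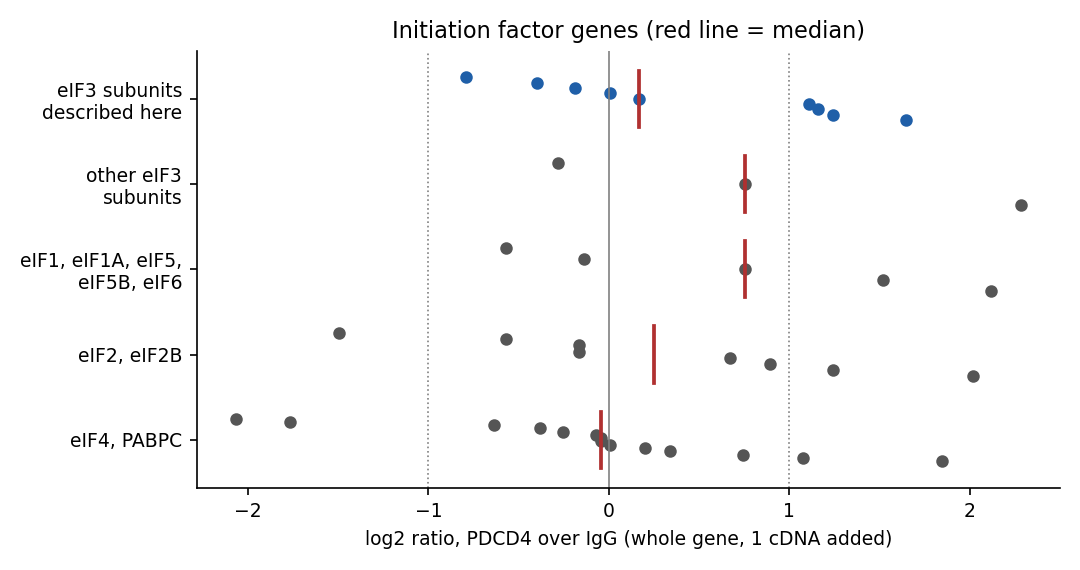
Each point is the log2 ratio of PDCD4 over IgG of 1 gene with at least 10 cDNAs (x axis, whole gene), grouped by initiation factor (y axis), with the median as a red line and dotted lines at 2-fold. The 9 eIF3 subunits described here run from -0.79 to 1.65 with a median of 0.17, within the range of the eIF4 and PABPC genes, -2.07 to 1.84.

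The genes most like the summed members were sought among 2221 others with at least 50 PDCD4 cDNAs, by the Euclidean distance between profiles of the log2 ratio and of the CDS, 3′ UTR and intron shares of PDCD4 cDNAs. The 5 nearest were KMT2C at a distance of 0.0590, BAZ2B at 0.0794, RUVBL1 at 0.114, MTOR at 0.124 and USP10 at 0.129. The summed members had a log2 ratio of 0.36 and shares of 45.6% CDS, 11.3% 3′ UTR and 29.6% intron, and KMT2C, a histone methyltransferase gene, had 0.38, 45.1%, 16.2% and 31.7%.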

How the data were processed

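MCF10A iCLIP libraries (2 PDCD4, 2 IgG) were processed by the authors with iCount on the genome of Ensembl release 88. The deposited files give 1 list of sites per antibody, named as merged replicates, in which the score of each site is an unnormalized count of cDNAs. Per the study's methods IgG sites were subtracted from PDCD4 before peaks were called. The deposited lists are peak lists, but they share 721 positions. How the subtraction was applied to them is not given in the sources used here. The 10 members and the gene lists were chosen with earlier results of these data known.

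Scores were summed per gene label and divided by the list's total. Log2 ratios had 1 cDNA added to each sum and intervals from the counting error of both sums (normal approximation on the log scale). Levels have exact Poisson and shares Wilson intervals at the 95% level. Genes with under 10 cDNAs over both lists were given no ratio, and a fold of 2 was the threshold. Regions came from GENCODE release 44 on the same build, hg38, with CDS taken first, followed by 3′ UTR and 5′ UTR, exons of transcripts without CDS and introns. Gene identifiers of 99.7% of sites were found in it, and 0 sites lay beyond a chromosome end. Exon positions and lengths used the canonical transcript. Named genes were the 10 members and, from fixed lists, other initiation factors past the fold or giving the range, and printed sites were among the 3 highest of each member or those of EIF3A exon 19, which was chosen after its values were seen. Alternatives covered the score threshold, sites in place of cDNAs, the added count, the denominator, shared positions, gene labels and the annotation. Scripts used Python 3.11.15, numpy 2.4.6, scipy 1.17.1 and matplotlib 3.10.9. Sequences on chromosome 8, where EIF3E and EIF3H lie, are not reported here.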

Additional observations from a re-analysis of the deposited data

How the results depend on the processing

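With positions in both lists left out, totals taken without mitochondrial sites or without the 10 genes of highest score per list, or single gene labels only, the summed log2 ratio and the count of members past 2-fold were close to the values reported (0.35 to 0.38, and 4). With scores greater than 5 only 4 PDCD4 sites were left, and the summed log2 ratio was 2.74, the exonic one 2.29 and the intronic one 1.04, all with intervals that include 0, while 0 members had the 10 cDNAs needed to be counted. At that threshold the CDS share of PDCD4 sites was 75% and the share in the last 60 nt of exons 0, and no IgG share could be given because no site was left. The count of members past 2-fold was 1 by number of sites and 2 with 5 cDNAs added. By number of sites the summed log2 ratio was 0.29 (-0.02 to 0.59). The exonic ratio was 1.09 with 1 canonical transcript per member and 0.23 against exonic totals, and the intronic ratio was 0.085 against intronic totals. The intronic ratio was -0.39 (-0.87 to 0.08) by number of sites and -0.25 (-0.51 to 0.006) with 1 canonical transcript per member. Both of these intervals include 0. With UTRs taken before CDS, the CDS shares were 32.2% for PDCD4 and 14.8% for IgG. The log2 ratio of EIF3C was -0.19 by number of sites and -0.08 with 5 cDNAs added, and that of EIF3L -0.04 with 5 cDNAs added. Chosen after seeing the data, leaving out EIF3A and EIF3B gave a summed ratio of -0.21, leaving out EIF3E and EIF3H gave 1.01, and sites whose next 30 nt are found once in the genome gave 0.44 with 4 members past 2-fold. Beyond what the settings themselves change, the cause of these shifts was not tested. No paired analysis was possible because the replicates of each antibody were deposited as 1 merged list, and for the same reason no replicate could be left out. Depth limits single sites most, since 228 of the 236 PDCD4 sites had a score of 4 or less.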
